A study of Mus musculus with 42 samples.

Results

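The transcripts of 10 genes that make, carry, sense or destroy retinoic acid were followed through the differentiation of mouse embryonic stem cells (mESCs) to anterior definitive endoderm (ADE). The genes were Aldh1a2, Stra6, Crabp1, Crabp2, Rarb, Rarg, Rarres1, Cyp26a1, Cyp26b1 and Cyp26c1. They were found by the RefSeq accession of each array probe and are 10 of 20972 named genes on the array. Rarb had 2 such probes and the other genes had 1, and the probe with the larger mean over all 42 arrays stands for Rarb unless the second is named. Values are log2 fluorescence intensities after background correction and normalisation, so a difference of 1 is a doubling.

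The study used 1 dual reporter mESC line, HRS/Gsc-GFP, in which GFP reports Gsc and RedStar reports Hhex. Gsc marks the primitive streak and its anterior derivatives, and Hhex marks anterior endoderm. RNA was measured on 42 one-colour arrays, 3 for each of 14 groups, and the labels describe the 3 as independent experiments. The untreated groups were mESCs, unsorted day 2 (d2) cells and cells sorted for the reporters. The sorts gave Gsc negative (G-) and positive (G+) cells at d3 and d4, G-, Glow and Ghigh cells at d5, and Hhex negative (G+H-) and positive (G+H+) cells of the high Gsc gate at d6. Negative and positive refer to the fluorescent reporters and not to the transcripts. The other 3 groups were d6 cells differentiated with or without 2.5 µM EPZ6438, an inhibitor of EZH2, the enzyme of Polycomb Repressive Complex 2 that methylates H3K27. Control cells received the solvent DMSO before and during differentiation, ADE_EPZ cells received DMSO before and EPZ6438 during it, and ES_EPZ cells received EPZ6438 before and DMSO during it. The labels of these groups name no sort, and the arrays were on other slides than the untreated ones, so the series are given side by side and were not tested against each other.

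Retinoic acid is made from dietary retinol in 2 oxidation steps, of which the last is catalysed by retinaldehyde dehydrogenases such as ALDH1A2. It binds nuclear receptors of the RAR family, which sit with RXR partners on response elements in DNA, and it is cleared by the cytochrome P450 enzymes of the CYP26 family. In the gastrulating embryo it is made in the trunk mesoderm and cleared at the anterior end, and Cyp26a1 and Rarb are classical direct targets of the receptors.

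The best known response element, DR5, holds a pair of half-sites on the same strand that are 5 bases apart. The half-site AGGTCA and its variants, of which one is AGTTCA, another is GGGTCA and the last is GGTTCA, were searched on both strands of 300-base windows around RefSeq transcription starts in GRCm38.p6, from 250 bases before to 50 bases after the start. Windows were at hand for 9 of the 10 genes, 13 windows in all. DR5 was found in the windows of Cyp26a1 and Rarb, and in 32 of all 32851 windows (0.0974%). The pairs 1 and 2 bases apart, DR1 and DR2, were found in 0 of the 13 windows and in 0.222% and 0.268% of all windows. A single half-site was present in 5 of the 13 windows and in 43.7% of all. These matches describe the letters and were not tested for binding. The elements are shown for both genes, named above as classical targets, and their part in the changes described here was not tested. Each is read 5′ to 3′ on the strand of the match, with half-sites in capitals.
Cyp26a1, chr19:37697776-37697792, minus strand: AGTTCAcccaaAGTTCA
Rarb, chr14:16575513-16575529, minus strand: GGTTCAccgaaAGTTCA
The 250 bases before each start place the element, in capitals, from 32 to 16 bases before the Cyp26a1 start and from 53 to 37 bases before the Rarb start. Cyp26a1 lies on the plus strand, so its element appears here as the reverse complement.
Cyp26a1, chr19:37697558-37697807, plus strand: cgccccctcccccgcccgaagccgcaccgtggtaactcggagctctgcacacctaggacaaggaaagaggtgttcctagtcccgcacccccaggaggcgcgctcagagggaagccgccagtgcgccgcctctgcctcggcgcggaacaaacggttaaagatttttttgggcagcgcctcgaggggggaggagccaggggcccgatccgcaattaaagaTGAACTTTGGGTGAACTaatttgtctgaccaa
Rarb, chr14:16575477-16575726, minus strand: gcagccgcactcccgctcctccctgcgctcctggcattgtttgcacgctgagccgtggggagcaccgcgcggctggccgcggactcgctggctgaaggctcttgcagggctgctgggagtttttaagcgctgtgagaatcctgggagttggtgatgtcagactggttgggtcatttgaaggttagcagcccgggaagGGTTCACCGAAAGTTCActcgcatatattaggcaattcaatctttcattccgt

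**Figure D1:**
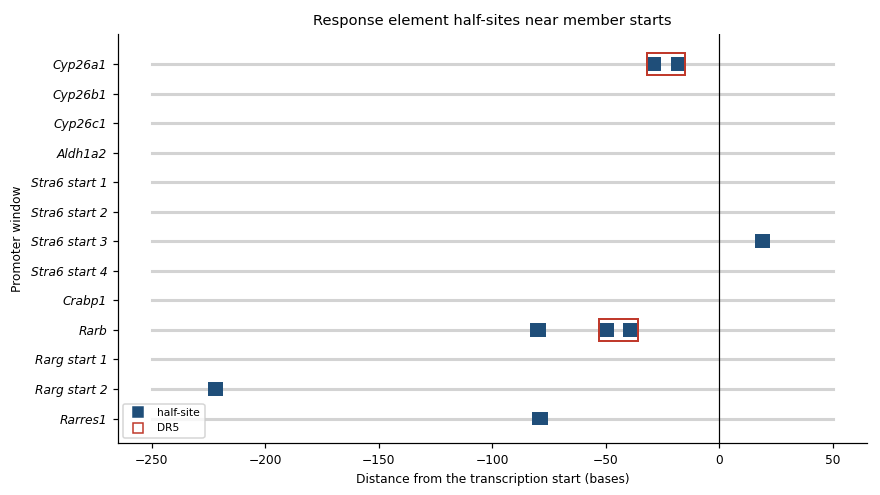
Positions of half-sites (filled blue) and DR5 pairs (red outline) in the 13 windows of 9 genes, as the distance in bases from the transcription start at 0. DR5 pairs lie before the starts of Cyp26a1 and Rarb and in no other window shown.

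Between 24454 and 40392 of 55681 probes were well above background on an array, and none was saturated. Arrays of 1 group correlated at 0.979 to 0.993. At the ends of the series the labels matched the markers. The mean of 6 pluripotency genes was 12.96 in mESCs and 7.29 in d6 G+H+ cells, and that of 6 ADE genes was 5.74 and 12.98. The sorts were less distinct. The ADE mean was 12.72 to 12.90 on G+H- and 12.84 to 13.15 on G+H+ arrays. Hhex itself read 12.32, 12.50 and 11.68 in G+H- and 12.52, 12.86 and 12.53 in G+H+ cells. In G- cells Gsc read 7.85 to 8.74 at d3 and 8.82 to 9.62 at d4, against 4.75 to 5.15 in mESCs. The third d5 Ghigh array stood apart from the others of its group towards d6. Its Hhex was 11.79 against 9.71 and 10.00. The third d5 Glow array stood apart in the same way, with Cer1, another anterior endoderm gene, at 12.55 against 7.26 and 8.71. On the third d5 G- array Cer1 was likewise highest, at 10.11 against 6.81 and 8.07. Values of Ghigh and Glow cells that the text turns on are also given without the third Ghigh or Glow array, 1 at a time. The third G- array was kept in these values. In sorted populations of many cells, fewer cells with a transcript and less of it per cell cannot be told apart.

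**Figure D2:**
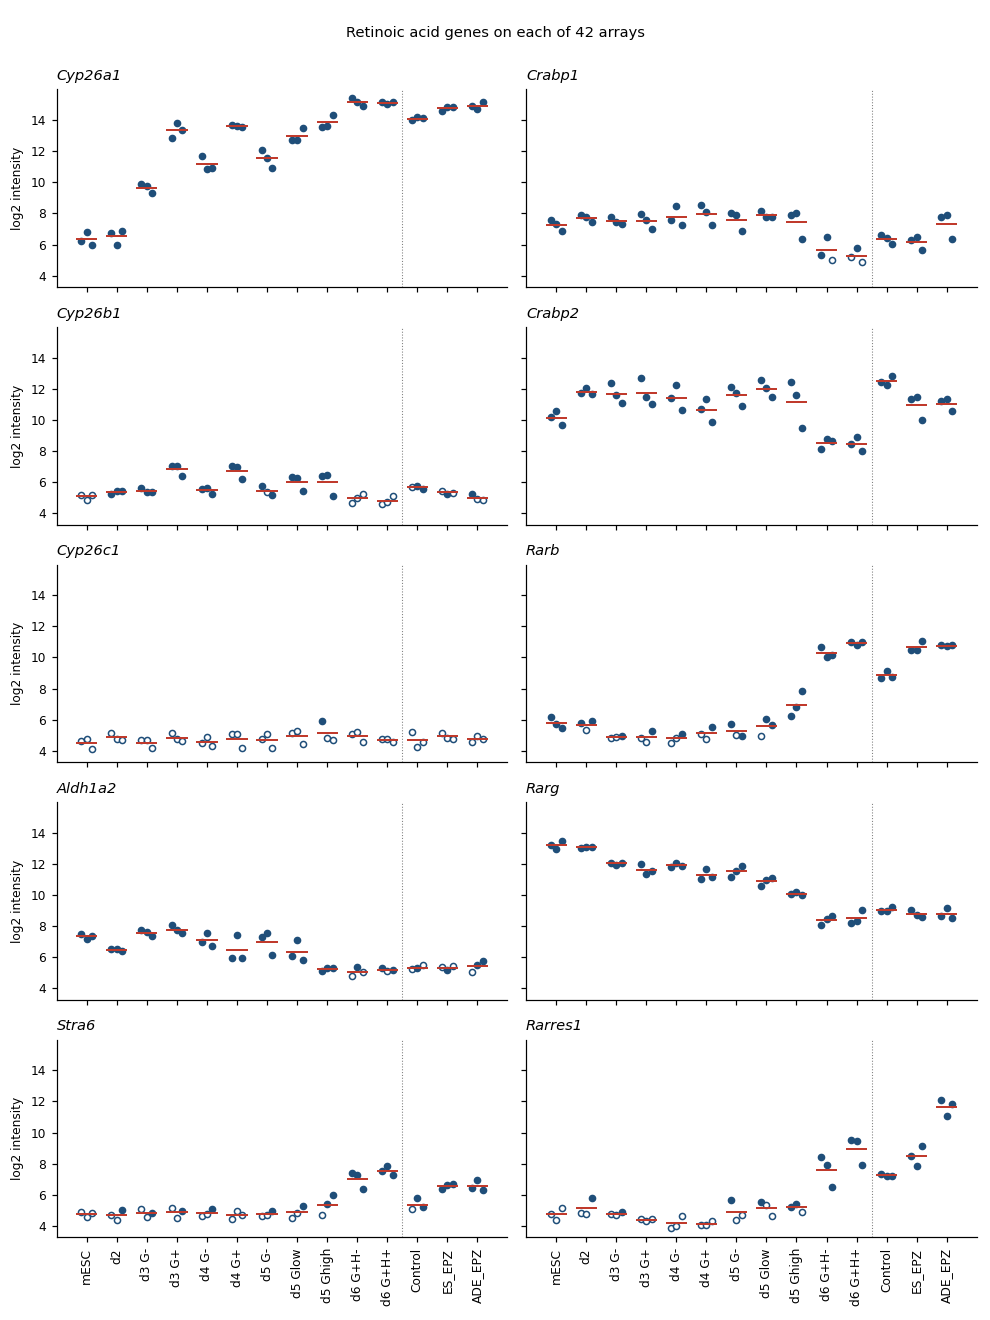
Log2 intensity of each gene on every array (points, open where the probe was not well above background) with the mean of 3 arrays (red line). The dotted line divides the untreated groups from the EPZ6438 series. Cyp26a1 rose and Rarg fell through the untreated groups, and Rarb, Stra6 and Rarres1 were highest among untreated groups at d6.

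A gene was called where its adjusted p did not exceed 0.01 (limma, Benjamini-Hochberg over all probes) and its log2 change was 1.5 or more in size. The first comparisons set each population against mESCs. At d2, 0 of the 10 genes were called, against 1.73% of all named genes, although 2 had an unadjusted limma p under 0.05 (22.9% of all genes). In G- cells 1 was called at d3 (2.42% of all), 1 at d4 (3.21%) and 2 at d5 (4.32%). In G+ cells 3 were called at d3 (6.59%) and 3 at d4 (7.41%). In d5 Glow and d5 Ghigh cells 3 each were called (7.74% and 8.19%). At d6, 7 were called in the G+H- sort (10.2%) and 7 in the G+H+ sort (11.1%). In the G+H- sort 4 were higher (5.1% of all genes) and 3 lower (5.1%), and in the G+H+ sort 4 were higher (5.79%) and 3 lower (5.33%). The median change of the 10 at d6 was 0.16 and -0.04, beside 0 and 0 over all genes, since rises and falls stood side by side. All of these comparisons share the mESC arrays.

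**Figure D3:**
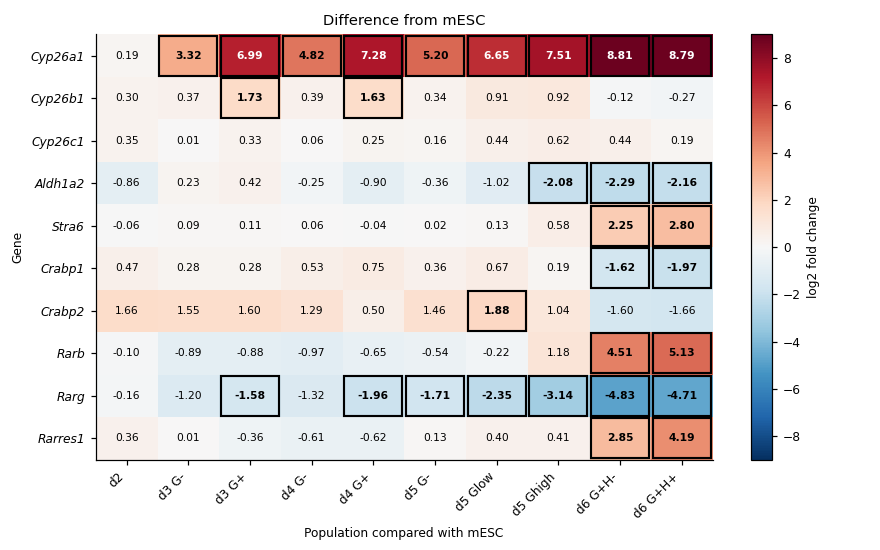
Log2 fold change of each gene (rows) against mESCs in 10 untreated populations (columns). Boxes and bold type mark calls. Cyp26a1 was boxed in every population but d2, and 7 genes were boxed in each d6 population.

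Cyp26a1, the main retinoic acid hydroxylase of the early embryo, rose most. It measured 6.26, 6.81 and 5.96 in mESCs, and 6.74, 5.96 and 6.90 at d2. It then measured 9.90, 9.75 and 9.31 in d3 G- cells, and 12.84, 13.81 and 13.36 in d3 G+ cells. The mESC and d2 arrays overlapped, and every later array lay above both. At d6 it reached 15.39, 15.18 and 14.90 in G+H- cells, a log2 fold change over mESCs of 8.81 (SE 0.29, adjusted p = 3.59e-21, limma). The G+H+ arrays, at 15.17, 15.06 and 15.15, lay inside that range.

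Cyp26a1 also separated the sorted populations. At d3 it was higher in G+ than in G- cells by 3.68 (SE 0.29, limma adjusted p = 4.40e-10), the only 1 of the 10 called, against 1.8% of all genes. The d4 arrays read 11.72, 10.83 and 10.93 for the G- sort, against 13.67, 13.62 and 13.57 for the G+ sort. That difference was 2.46 (SE 0.29, limma adjusted p = 6.77e-07), again the only call among the 10, against 2.28% of all genes. G+ and G- arrays did not overlap on either day, as in 22.4% of all genes at d3 and 28.3% at d4. On slides with both, the difference was 4.06 and 4.04 at d3 and 1.90 and 2.84 at d4, where the 2 arrays of a slide had different replicate numbers. The change of the difference from d3 to d4, -1.22 (SE 0.40), did not pass (limma interaction, adjusted p = 1). At d5 Glow exceeded G- by 1.45 (limma adjusted p = 0.00365), under the fold threshold. The difference was 1.13 and 2.56 on the 2 slides with both, the second being that of the third Glow and G- arrays. Without that Glow array it was 1.19, with the third G- array, the lowest of its group at 10.95, kept. In that comparison 0 of the 10 were called, against 0.758% of all genes, and 4 had an unadjusted limma p under 0.05 (14.3% of all genes). Without the first G- array, or the first or second Glow array, 1 was called.

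In order of mean, Cyp26a1 was lowest in mESCs and d2 cells, then rose through d3 G-, d4 G-, d5 G-, d5 Glow, d3 G+, d4 G+ and d5 Ghigh to d6. Of these neighbours only d2 and d3 G-, d3 G- and d4 G-, d5 G- and d5 Glow, and d5 Ghigh and d6 had ranges of arrays that did not overlap. Without the third Ghigh array, Ghigh cells stood 7.25 above mESCs, beside 7.28 for d4 G+ cells, so the order of these groups rests on that array.

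Cyp26b1, a second hydroxylase with a later role in limb and gonad, was dim, and transient in the untreated groups. It was not above background on any mESC array, which read 5.19, 4.88 and 5.18. In d3 G+ cells it measured 7.01, 7.04 and 6.39, and in d4 G+ cells 7.01, 6.95 and 6.20. These were at least 3.31-fold and at least 3.1-fold above mESCs (limma adjusted p = 6.89e-06 and 1.44e-05). Such a bound sets the brighter mean against the higher of the dim reading and the lowest signal above background on each array. It makes no allowance for the spread of arrays or for the background correction. For Cyp26b1 the bounds equal the differences of means, 1.73 and 1.63 (SE 0.27 each), and an offset of 50 gave 1.06 and 0.99. The d4 call was lost without the first d4 G+ array. Within days G+ exceeded G- by 1.36 at d3 and 1.25 at d4, both under the fold threshold, and Cyp26b1 was called as well at d3 without the third d3 G+ array and at d4 without the third d4 G+ array. In the 2 sorted d6 groups none of its 6 arrays was above background. Of the d6 arrays of the EPZ6438 series, 2 of 3 Control, 1 of 3 ADE_EPZ and 1 of 3 ES_EPZ arrays were. Cyp26c1, the third family member, was above background on 1 of 42 arrays, a d5 Ghigh array at 5.89, and was called in no comparison.

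Aldh1a2, the main synthetic enzyme of the early embryo, went the other way. It measured 7.50, 7.19 and 7.34 in mESCs, 6.50, 6.53 and 6.42 at d2, and 8.04, 7.74 and 7.53 in d3 G+ cells. The d2 arrays lay below and the d3 G+ arrays above all mESC arrays, and neither difference passed (-0.86, limma adjusted p = 0.114 at d2). In d5 Ghigh cells it had dropped to 5.12, 5.33 and 5.34, a change of -2.08 from mESCs (SE 0.32, limma adjusted p = 4.33e-06) and of -2.12 without the third Ghigh array. At d6 the change was -2.29 in the G+H- sort and -2.16 in the G+H+ sort, with 1 and 2 of 3 arrays above background. No Ghigh or d6 array reached the lowest mESC array. The d4 G+, d5 G- and d5 Glow arrays were spread, from 5.82 to 7.56.

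Stra6, the membrane receptor that takes up retinol from its carrier RBP4, appeared at d6. It was not above background on any mESC array and on 0 or 1 of 3 arrays in the other groups up to d5 Glow. In d5 Ghigh cells it measured 4.68, 5.38 and 5.96, the highest being the third array. At d6 it was 7.39, 7.27 and 6.37 in G+H- cells and 7.53, 7.88 and 7.26 in G+H+ cells. These were at least 4.22-fold and at least 6.18-fold above mESCs (limma adjusted p = 5.25e-08 and 4.71e-10). Every array of these 2 sorted groups lay above every untreated array of an earlier day. The visceral endoderm markers were higher on the same arrays, with a mean of 5.46 over 6 genes in d5 Ghigh cells against 6.77 and 7.38 in the sorted d6 groups, while Afp was above background on none of those 6 arrays. Their part in the d6 values of Stra6, Rarb, Rarres1 and Rbp4 was not tested.

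The genes of both cellular retinoic acid binding proteins had their lowest means in the 2 sorted d6 groups. Crabp1, which is thought to hold retinoic acid for breakdown, kept between 6.38 and 8.55 on all arrays up to d5. At d6 it measured 5.34, 6.52 and 5.02 in G+H- cells and 5.19, 5.75 and 4.86 in G+H+ cells. The change from mESCs was -1.62 (SE 0.43, limma adjusted p = 0.00444) and -1.97 (limma adjusted p = 0.000495). The G+H- call was lost without the first or second mESC array, or the first or the third G+H- array.

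Crabp2, which delivers retinoic acid to the receptors, measured 10.16, 10.60 and 9.64 in mESCs and 11.71, 12.02 and 11.67 at d2. The d2 arrays all lay above the mESC ones, but the difference of 1.66 did not pass (limma adjusted p = 0.0552). In d5 Glow cells it was higher by 1.88 (limma adjusted p = 0.0094), a call lost without any of the mESC arrays or the first or second Glow array, and with scaling by the 75th percentile (limma adjusted p = 0.0129). At d6 the G+H- arrays read 8.16, 8.79 and 8.63 and the G+H+ arrays 8.47, 8.91 and 8.03, all below the mESC arrays. The changes of -1.60 and -1.66 did not pass (limma adjusted p = 0.0245 and 0.0179).

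The receptors moved in opposite directions. Rarg, which encodes the gamma receptor, measured 13.23, 12.97 and 13.47 in mESCs and 13.02, 13.07 and 13.11 at d2. It was 10.04, 10.18 and 10.02 in d5 Ghigh cells and 8.08, 8.45 and 8.66 in d6 G+H- cells. The d6 G+H- change was -4.83 (SE 0.21, limma adjusted p = 3.97e-18) and the G+H+ change was -4.71. Only mESC and d2 arrays, which overlapped, exceeded 12.08. The d3 G+ change of -1.58 was called, but fell short of the fold threshold without the third mESC or the second d3 G+ array.

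Rarb, itself a receptor and a target of retinoic acid, was 6.16, 5.70 and 5.49 in mESCs. In d3 and d4 cells its arrays were between 4.53 and 5.51, with only 1 of 3 above background in each group. The second Rarb probe was above background on none of these arrays. It then measured 6.21, 6.82 and 7.86 in d5 Ghigh cells, the last being the array that stood apart. At d6 it was 10.70, 10.03 and 10.16 in G+H- cells and 11.02, 10.77 and 10.96 in G+H+ cells. These were 4.51 (SE 0.30, limma adjusted p = 6.33e-14) and 5.13 (limma adjusted p = 2.31e-15) above mESCs. The second Rarb probe, not above background in mESCs, gave at least 8.93-fold and at least 12.5-fold.

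Rarres1, named for its induction by a retinoid in skin cells, was at or near background up to d5, with no array above 5.78. At d6 it measured 8.44, 7.90 and 6.52 in G+H- cells and 9.52, 9.45 and 7.92 in G+H+ cells. These were at least 6.42-fold and at least 16.3-fold above mESCs (limma adjusted p = 8.95e-07 and 3.28e-10). The third array was the lowest in both d6 groups.

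Between d5 Ghigh and d6 G+H- cells, a comparison chosen after the values had been seen, 6 of the 10 were called, against 2.17% of all genes. There were 3 higher (1.39% of all genes) and 3 lower (0.782%). Rarb rose by 3.33, Rarres1 by 2.44 and Stra6 by 1.67, while Crabp2 changed by -2.65, Crabp1 by -1.81 and Rarg by -1.68. Without the third Ghigh array these were 3.78, 2.29, 1.98, -3.51, -2.34 and -1.71, and 7 genes were called. Without the first Ghigh array or the first G+H- array 3 were called, and with only these 2 groups in the fit 0 were. The 2.17% belongs to the fit of all arrays, and these other counts have no share of all genes beside them. Scaling by the 75th percentile ended the calls of Rarres1 (limma adjusted p = 0.0116) and Crabp1 (0.0105). The mean of the mesoderm markers was 8.17 to 10.09 on the Ghigh arrays and 7.34 to 7.88 on the G+H- arrays, and its part in these values was not tested.

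In Ghigh against Glow cells 0 of the 10 were called, against 0.267% of all genes, with 4 at an unadjusted limma p under 0.05 (11.1% of all genes), and 1 was called without the first Ghigh array. In 4 of the 10 the arrays did not overlap, as in 15.1% of all genes. Rarb was higher in Ghigh cells by 1.4 (limma adjusted p = 0.0182), or 0.95 without the third Ghigh array and 1.44 without the third Glow array. Cyp26a1 differed by 0.86, Aldh1a2 by -1.07 and Rarg by -0.80, and these did not pass either. Without the third Ghigh array they were 0.61, -1.11 and -0.76, and without the third Glow array 1.12, -1.33 and -0.67. In d6 G+H+ against G+H- cells 0 were called, against 0% of all genes, with 2 of the 10 and 1261 of all genes at an unadjusted limma p under 0.05. The largest d6 difference was that of Rarres1, 1.34 (SE 0.40, limma adjusted p = 0.584), higher in 8 of 9 pairs of arrays.

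The inhibitor comparison asked whether PRC2 activity before or during differentiation bears on gene expression in the resulting cells. Rarres1 and Rarb were called higher in ADE_EPZ cells, 2 of 10 against 1.97% of all genes higher and 2.78% called in either direction. Rarb was the 1 gene of the 10 called higher in ES_EPZ cells, against 0.367% of all genes higher and 0.429% in either direction. These comparisons share the Control arrays. In 6 of the 10 the ADE_EPZ and Control arrays did not overlap, as in 39.9% of all genes. The ES_EPZ and Control arrays did not overlap in 6 of the 10, as in 28.2% of all genes. Rarres1 was the 1 of the 10 called between the regimens, higher in ADE_EPZ cells, against 0.114% of all genes higher and 0.129% in either direction.

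Rarres1 measured 7.34, 7.22 and 7.21 in Control, 12.08, 11.09 and 11.81 in ADE_EPZ, and 8.51, 7.87 and 9.14 in ES_EPZ cells. ADE_EPZ was 4.40 above Control (SE 0.40, limma adjusted p = 1.83e-08). ES_EPZ was 1.25 above Control, which did not pass (limma adjusted p = 0.11), although its 3 arrays lay above all Control arrays. ADE_EPZ exceeded ES_EPZ by 3.15 (SE 0.40, limma adjusted p = 2.48e-05), and by 2.67, 3.57 and 3.22 on the 3 slides, each of which held 1 array of every regimen.

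Rarb measured 8.66, 9.16 and 8.74 in Control, 10.77, 10.72 and 10.80 in ADE_EPZ, and 10.51, 10.45 and 11.03 in ES_EPZ cells. All treated arrays lay above all Control arrays. The differences were 1.91 (SE 0.30, limma adjusted p = 4.19e-05) and 1.81 (SE 0.30, limma adjusted p = 0.00106). On the 3 slides they were 1.64 to 2.06 in ADE_EPZ and 1.77 to 1.87 in ES_EPZ cells. The Control array of each slide had another replicate number than its treated arrays. The second probe gave 1.75 and 1.53. The ES_EPZ call was lost without the third Control array (1.75, limma adjusted p = 0.0115) or the third ES_EPZ array (1.63, limma adjusted p = 0.0276). With scaling by the 75th percentile neither Rarb call passed (limma adjusted p = 0.029 in ADE_EPZ and 0.108 in ES_EPZ cells). The regimens differed by 0.10 (SE 0.30, limma adjusted p = 1).

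Stra6 measured 5.06, 5.78 and 5.22 in Control and between 6.31 and 6.98 on the 6 treated arrays, with no overlap. Its differences of 1.22 and 1.23 were under the fold threshold (limma adjusted p = 0.00257 and 0.0138). Crabp2 was 12.43, 12.26 and 12.84 in Control, and every treated array was lower, between 10.00 and 11.44. Its differences of -1.47 and -1.59 did not pass (limma adjusted p = 0.0768 and 0.13). Cyp26a1 was 13.98 to 14.21 in Control and 14.60 to 15.16 on the treated arrays, again without overlap, and did not pass (limma adjusted p = 0.0583 and 0.295).

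Cell type markers moved with these values. The mean of 6 ADE markers was 11.37 to 11.83 on Control, 12.52 to 12.89 on ADE_EPZ and 12.09 to 12.51 on ES_EPZ arrays. The mean of 6 mesoderm markers was 9.34 to 9.42, 8.03 to 8.60 and 8.14 to 8.92 in the same order, and that of 6 primitive streak markers 10.78 to 10.84, 9.77 to 9.99 and 10.07 to 10.52. Pluripotency markers (7.53 to 7.99 against 8.17 to 8.45) and visceral endoderm markers (6.63 to 6.99 against 7.07 to 7.45) were higher on ADE_EPZ than on Control arrays without overlap. The mean of 6 neural markers was 6.16 to 6.48 on Control, 6.43 to 6.73 on ADE_EPZ and 6.48 to 6.86 on ES_EPZ arrays. Of these markers, neither Pax6 nor Neurog2 was above background on any of the 9 arrays. The part of these shifts in the differences of Rarb, Rarres1, Stra6 and Crabp2 was not tested.

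**Figure D4:**
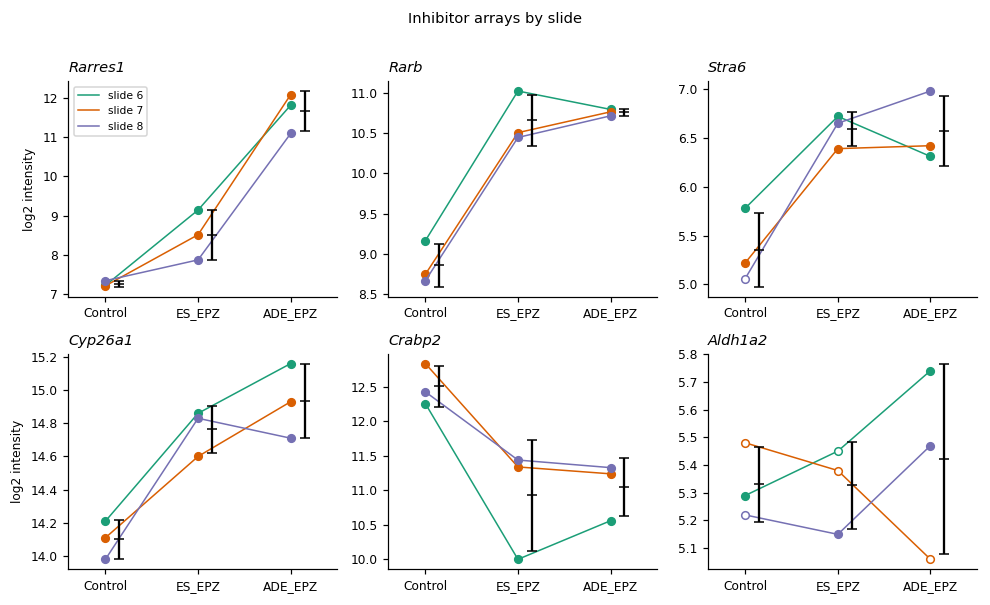
Log2 intensity of 6 of the genes in Control, ES_EPZ and ADE_EPZ cells, with a line for each slide (open points were not well above background) and the mean ± SD of 3 arrays in black; each panel has its own vertical axis. Rarres1 was 3.15 higher in ADE_EPZ than in ES_EPZ cells, whereas Rarb and Stra6 were near each other in both.

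Among 66 other genes of the retinoid pathway, 15 were called in d3 G+ cells against mESCs (6.59% of all genes), 11 higher and 4 lower. In d6 G+H+ cells 18 were called (11.1% of all genes), 8 higher and 10 lower. The median change over the 66 was 0.23 at d3 G+ and -0.04 at d6 G+H+. Of 24 genes known to be induced by retinoic acid, 8 were called higher and 2 lower in d3 G+ cells. Of all genes 2.89% were called higher there and 6.59% in either direction. The 8 included Meis2 (3.04, SE 0.51) and Zfp703 (4.70, SE 0.47), and Gbx2 was 1 of the 2 lower (-2.57, SE 0.52). The same list had 2 higher (5.1% of all genes) and 5 lower (5.1%) in d6 G+H- cells. In d6 G+H+ cells it had 3 higher (5.79%) and 6 lower (5.33%). Against d5 Ghigh cells it had 0 higher (1.39%) and 3 lower (0.782%) in d6 G+H- cells. At d6 Meis2 stood below mESCs (-2.03 in G+H+).

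Rbp4, the plasma carrier of retinol that STRA6 recognises, stood at 6.90 ± 0.56 in mESCs, 13.52 ± 0.87 in the G+H- sort of d6 and 14.05 ± 0.57 in its G+H+ sort (SD, n = 3). In the EPZ6438 series 3 of the 66 were called higher in ADE_EPZ cells (1.97% of all genes), Rbp4 (2.12, SE 0.33), the retinol dehydrogenase Rdh1 (1.58) and the nuclear receptor Nr2f2 (1.85), and none was called lower. Rbp4 was the 1 gene of the 66 called in ES_EPZ cells (1.84, SE 0.33), against 0.367% of all genes higher.

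Over the 11 untreated group means, the genes most like each member were listed among 15318 expressed genes. For Cyp26a1 these were Pmepa1 (Pearson's r 0.993), Cgrrf1 and Car15. For Rarb they were Akr1c12 and Angpt2 (both 0.995) and Clec11a, and for Stra6 they were Akr1c19, Apoa1 and Degs2 (all 0.996). For Cyp26b1 they were Lrrfip2 (0.984), Mesp2 and Uxs1, and for Rarg they were Evc and Sf3b2 (both 0.992) and Zbtb45. The points are means of the same arrays, and the values are descriptions.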

How the data were processed

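The authors deposited a scanner file for each array, with foreground and background intensity, and a table of log2 intensity made with limma by normexp correction (offset 10) and quantile normalisation. Spots of a probe were averaged here. The table correlated at 0.999979 or more with values recomputed from the scanner files. Symbols came from RefSeq (GRCm38.p6), used for names, and promoter windows from the same build.

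The means of the 14 groups were fitted together, on 42 arrays, by the linear model of limma 3.58.1 (R 4.3.3). P-values were adjusted over 55681 probes. All 10 genes were named, with any called gene of the pathway and marker lists. Genes and lists were chosen with earlier results of these data known. Some values of the pathway lists are not reported here, although every count includes their genes. The procedure was tested on simulated data.

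Same-numbered arrays deviated together, every correlation over 0.1, in the sorted comparisons of 1 day (0.16 to 0.71), between the inhibitor regimens and in both d4 populations against mESCs. Alternatives varied values, background correction, scaling, filter, slide, block, probe, threshold and arrays.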

Additional observations from a re-analysis of the deposited data

Results flagged for a closer look

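Rarres1 differed between cells given EPZ6438 during and before differentiation, by a test of that difference. Its level was 3.15 higher on the log2 scale in ADE_EPZ than in ES_EPZ cells (SE 0.40, limma adjusted p = 2.48e-05), higher in 9 of 9 pairs of arrays. Both regimens share the Control arrays, so the difference of their effects is the difference of the regimens. It was 3.24 with 75th percentile scaling (limma adjusted p = 0.0984) and 3.15 with only these groups in the fit (0.0192), and adjusted p ran from 4.08e-07 to 0.0984 over all alternatives.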

How the results depend on the processing

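No single-gene change reversed under any alternative: 708 values kept their call and 48 lost it. At d2 against mESCs 1 gene, in place of 0, was called with slide as a fixed or random block, with the replicate number as a block, and with only the compared groups fitted. At d3 G- 2 were called, in place of 1, with slide as a fixed or random block, with the replicate number as a block, and with no fold threshold. With no fold threshold 2 were also called at d4 G-, in d3 G+ against G- and in d4 G+ against G- (1 each before), and 1 in d5 Glow against G- (0 before). Others that passed on adjusted p alone included Rarb in d5 Ghigh against mESCs (1.18, limma adjusted p = 0.00342). Stra6 in ADE_EPZ against Control did so too (1.22, limma adjusted p = 0.00257). Scaling by the 75th percentile gave 2 at d4 G-, 1 in d5 Glow against G-, 0 in ES_EPZ against Control and 0 in ADE_EPZ against ES_EPZ. It moved the median of all genes by -0.14 to 0.16 over the comparisons. An offset of 50 gave 4 at d6 G+H-, in place of 7, and put every call of Aldh1a2 and Cyp26b1 against mESCs, the d6 calls of Crabp1 and the G+H- call of Stra6 under the fold threshold. Only the compared groups in the fit gave 0 in ES_EPZ against Control, 0 in ADE_EPZ against ES_EPZ and 0 in d6 G+H- against d5 Ghigh, where fewer arrays estimate the spread. The replicate block changed no count in the comparisons whose same-numbered arrays deviated together.

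Leaving out 1 array at a time gave 0 to 0 genes at d2 against mESCs, 1 to 1 at d3 G-, 2 to 3 at d3 G+, 1 to 1 at d4 G-, 2 to 3 at d4 G+, 2 to 2 at d5 G-, 2 to 3 at d5 Glow, 3 to 4 at d5 Ghigh, 6 to 7 at d6 G+H- and 7 to 7 at d6 G+H+. It gave 1 to 2 in G+ against G- at d3 and at d4, 0 to 1 in Glow against G-, 0 to 1 in Ghigh against Glow and 0 to 0 in G+H+ against G+H-. It gave 2 to 2 in ADE_EPZ and 0 to 1 in ES_EPZ against Control, 1 to 1 between them, and 3 to 7 in d6 G+H- against d5 Ghigh. With 3 arrays a group, and with Cyp26c1, Stra6, Rarres1 and Cyp26b1 near background in many groups, small changes of these genes were not detectable.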
